A study of Mus musculus with 2 samples.

Results

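Tropomyosins are coiled-coil proteins that lie end to end along actin filaments and set which other proteins can reach the filament. The mouse carries 4 tropomyosin genes, Tpm1, Tpm2, Tpm3 and Tpm4, and these were chosen by gene name: 4 of the 18595 annotated genes with reads in these data, with 108 transcript models between them. The data are long-read RNA-seq of mice of strain B6NCrl, with the tissue labelled layer of hippocampus and called hippocampus below. The mice are labelled adult, 6 months old and male by their description, although the field for sex holds no value. There was 1 group of 2 libraries and no treatment, genotype or other condition. Replicate 1 held 1330153 reads and replicate 2 held 1366252 reads, so that 1 read was worth 0.752 CPM (counts per 1000000 library reads) in replicate 1 and 0.732 CPM in replicate 2. The labels give the libraries separate biosamples but 1 shared donor, so a difference between these 2 libraries may be technical. Each test sets 1 library against 1 library. The p-values of Fisher's exact test below weigh that difference against counting error only and hold no estimate of the spread between animals. Each table lists whole-number counts of reads per transcript model, and a long read that spans a gene shows which first, internal and last exons were joined in 1 molecule.

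Most of the variety of tropomyosins comes from exon choice. A gene can start at exon 1a, which leads through an exon 2 to a long protein, or at an internal promoter before exon 1b, which gives a short one. Exons 6a and 6b are known as alternatives to each other, and the last coding exon is one of 9a to 9d, which sets the tail of the protein where neighbouring tropomyosins overlap on actin. Striated muscle is known for 1a with a 9a to 9b end, smooth muscle and fibroblasts for 9d, and brain for the 9c end of Tpm1. The customary exon names are used below, given to annotated exons in their order along each gene. All coordinates are 1-based, in mm10, with gene models of GENCODE M21.

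The exons that carry the main differences are shown first. Exon 6 is 76 bases long in either form in Tpm1 and in Tpm3, and capitals mark the bases at which 6a and 6b of the same gene differ. The sequences read 5′ to 3′ on the strand of the gene, which is the minus strand for Tpm1 and the plus strand for Tpm3.
Tpm1 exon 6a, chr9:67032466-67032541: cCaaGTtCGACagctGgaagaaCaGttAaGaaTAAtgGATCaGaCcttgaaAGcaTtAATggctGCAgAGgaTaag
Tpm1 exon 6b, chr9:67031951-67032026: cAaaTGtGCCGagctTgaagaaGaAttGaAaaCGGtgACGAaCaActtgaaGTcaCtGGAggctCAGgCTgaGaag
Tpm3 exon 6a, chr3:90088401-90088476: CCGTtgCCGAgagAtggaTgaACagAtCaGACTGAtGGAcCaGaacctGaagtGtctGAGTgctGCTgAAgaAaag
Tpm3 exon 6b, chr3:90089048-90089123: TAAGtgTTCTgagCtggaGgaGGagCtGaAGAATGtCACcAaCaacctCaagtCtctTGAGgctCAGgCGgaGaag

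Exons 6a and 6b differed at 33 of the 76 bases in Tpm1 and at 37 of the 76 bases in Tpm3. The 6b exons of Tpm1 and Tpm3 were more alike, at 75.0% of bases, than 6a and 6b within Tpm1 (56.6%) or within Tpm3 (51.3%). The single exon 6 of Tpm4 matched the 6b exons of Tpm1, Tpm2 and Tpm3 at 71.1%, 71.1% and 73.7% of bases, and their 6a exons at 53.9%, 43.4% and 55.3%. These identities come from the reference and were not measured in the libraries.

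The coding parts of the last exons are shown because they separate the main Tpm1 and Tpm3 transcripts. Capitals mark the stop codon, and exon 9b of Tpm1 is given in the frame used when it follows exon 8 directly.
Tpm1 exon 9b, chr9:67028076-67028167: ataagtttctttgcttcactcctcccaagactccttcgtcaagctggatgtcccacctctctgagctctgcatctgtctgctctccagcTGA
Tpm1 exon 9c, chr9:67024492-67024565: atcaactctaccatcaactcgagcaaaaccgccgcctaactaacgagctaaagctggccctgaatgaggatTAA
Tpm1 exon 9d, chr9:67023359-67023441: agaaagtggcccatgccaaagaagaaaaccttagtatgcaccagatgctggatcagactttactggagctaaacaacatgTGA
Tpm3 exon 9c, chr3:90098375-90098454: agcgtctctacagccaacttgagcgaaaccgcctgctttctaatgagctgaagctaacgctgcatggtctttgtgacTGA
Tpm3 exon 9d, chr3:90099528-90099610: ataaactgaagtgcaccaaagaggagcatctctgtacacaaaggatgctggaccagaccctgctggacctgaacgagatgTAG
Tpm4 exon 9d, chr8:72151742-72151824: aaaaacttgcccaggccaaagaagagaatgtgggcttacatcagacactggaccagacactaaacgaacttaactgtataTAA

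Tpm3 and Tpm1 held most of the tropomyosin reads. Of the reads of the 4 genes, Tpm3 had 53.7% ± 0.0757, Tpm1 36.3% ± 1.92, Tpm4 9.02% ± 1.93 and Tpm2 1.03% ± 0.0714 (SD, n = 2 libraries each). In all, the family had 614 reads in replicate 1 and 742 reads in replicate 2, or 462 and 543 CPM. One read was counted as 1 molecule, so CPM was not divided by length. No molecular identifiers are described, so repeated copies of 1 molecule cannot be told apart. Levels of different genes can be set side by side as far as long and short molecules were copied and sequenced equally well.

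Tpm3 (ENSMUSG00000027940.18, chr3:90072649-90100902, plus strand), a source of many short cytoskeletal tropomyosins, had 330 reads (248 CPM) in replicate 1 and 398 reads (291 CPM) in replicate 2. It ranked 591st of the 18595 genes by mean CPM (269.7 ± 30.6, SD, n = 2). Tpm1 (ENSMUSG00000032366.15, chr9:67022590-67049406, minus strand), which makes both long and short forms, had 231 reads (174 CPM) in replicate 1 and 259 reads (189.6 CPM) in replicate 2, and ranked 989th. Tpm4 (ENSMUSG00000031799.9, chr8:72134975-72153142, plus strand), a short cytoskeletal form, had 47 reads (35.3 CPM) in replicate 1 and 77 reads (56.4 CPM) in replicate 2, and ranked 3805th. Tpm2 (ENSMUSG00000028464.16, chr4:43514711-43523765, minus strand), known best from muscle, had 6 reads (4.51 CPM) in replicate 1 and 8 reads (5.86 CPM) in replicate 2, and ranked 10891st. The order Tpm3, Tpm1, Tpm4, Tpm2 was the same in both libraries, and no gene's lower library fell below the higher library of the gene next in order.

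All 4 genes had a lower CPM in replicate 1 than in replicate 2, but none was called different. Fisher's exact test (two-sided) of each gene against the rest of the library, adjusted by Benjamini-Hochberg over the 11891 genes with at least 10 reads, called 0 of the 4, where it called 5.95% of all genes tested. Before adjustment, 2 of the 4 passed 0.05 by Fisher's exact test, Tpm4 at p = 0.0117 and Tpm3 at p = 0.0315, where 16.2% of all genes tested passed it. The log2 ratio of replicate 1 over replicate 2 was -0.67 for Tpm4 (95% interval -1.23 to -0.13; adjusted p = 0.131) and -0.23 for Tpm3 (-0.45 to -0.02; adjusted p = 0.239). It was -0.13 for Tpm1 (-0.39 to 0.14; adjusted p = 0.752) and -0.38 for Tpm2 (-2.18 to 1.34; adjusted p = 0.988). The median over all genes tested was -0.05. With edgeR's exact test, which allows for the spread between the libraries and called 0.42% of genes, the adjusted p was 1 for all 4. That spread was estimated from these same libraries, so the difference under test was part of it. This test therefore cannot decide whether the genes differed.

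**Figure D1:**
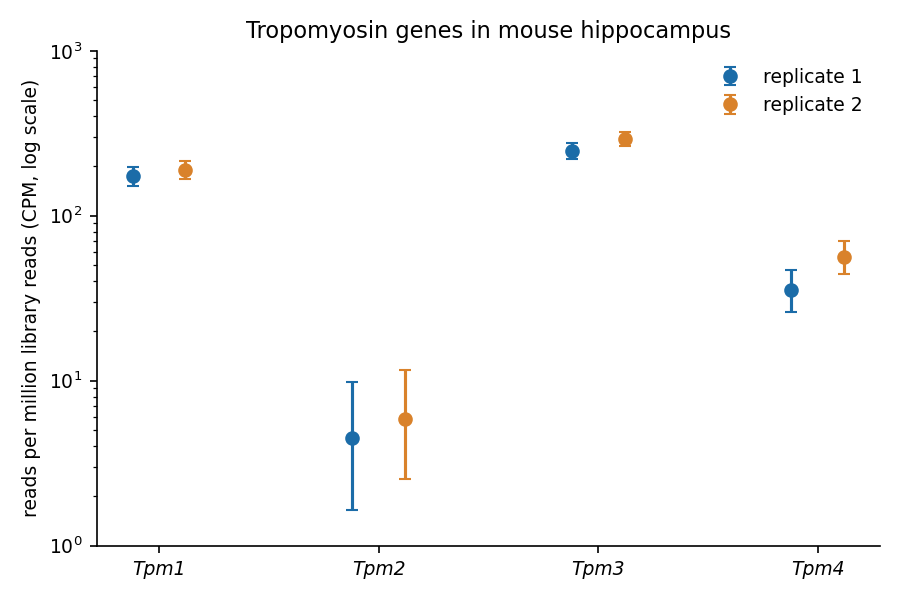
CPM (log scale) of the 4 tropomyosin genes in the 2 hippocampus libraries; points are single libraries, replicate 1 left of replicate 2, and bars are exact 95% intervals that cover counting error only. Tpm3 (248 and 291 CPM) and Tpm1 (174 and 189.6 CPM) lie well above Tpm4 (35.3 and 56.4 CPM), and Tpm2 (4.51 and 5.86 CPM) lies lowest.

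The markers of other cell types differed between the libraries in places. Calls here are those of the Fisher's exact test above, which called 5.95% of all genes tested. They depend on read number as well as on the size of a difference. The choroid plexus list, led by Ttr, Enpp2 and Kcnj13, summed to 13965 CPM in replicate 1 but 318 CPM in replicate 2, and 7 of its 7 tested genes were called higher in replicate 1 (Folr1, Kl, Clic6 and Sostdc1 are the others). The smooth muscle and mural list, of contractile cells of the vessel wall, was led by Vtn, Rgs5 and Myl9 and had a sum of 114 CPM in replicate 1 against 169 CPM in replicate 2; all 10 genes had reads, and Myl9, a myosin light chain, was the 1 called of the 6 tested. Acta2, smooth muscle actin, named here after its value was seen, had 4 reads in replicate 1 and 17 in replicate 2 and was not called. In the same order, Tagln and Myh11 each had 3 and 4 reads, Des 5 and 4 and Cnn1 0 and 2, too few to test. The meningeal fibroblast list, led by Dcn, Slc6a13 and Lum, had a sum of 139.8 CPM in replicate 1 against 208 CPM in replicate 2, with 0 called of 6 tested. Other lists had a lower sum in replicate 1 too: microglia 402 against 511 CPM (0 of 4 called, led by C1qa, C1qb and P2ry12) and endothelium 187 against 257 CPM (Cldn5 of 3 genes called lower, ahead of Flt1 and Pecam1). All 4 tropomyosins were lower in replicate 1 as well, and the part of any of these cells in their values was not tested. In whole tissue, more cells of a type and more RNA per cell cannot be told apart. The skeletal and heart muscle list of 9 genes summed to 63.2 CPM in replicate 1 against 79.0 CPM in replicate 2, nearly all from Myh7 (54 and 79 reads) and Acta1 (30 and 26 reads). Of its other genes, Myh1 and Myh4 had at most 2 reads in a library, and Ckm, Actc1, Myh2, Myh6 and Ttn were at 0 in both libraries. Neuron markers, led by Snap25, Nefl and Syt1, had sums of 4735 CPM (replicate 1) and 5888 CPM (replicate 2). Those 3 of 7 genes were called lower in replicate 1. Astrocyte markers, led by Aldoc, Slc1a2 and Gja1, had sums of 3064 and 3280 CPM, with Aldoc called lower and Slc1a2 higher in replicate 1. Neither list holds a marker of the hippocampus itself, so the region on the label was not checked. The median log2 ratio of replicate 1 over replicate 2 was -0.24 for the neuron list, of which 3 genes were called. It was -0.41 for microglia and -1.11 for meningeal fibroblasts, of which 0 were called.

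Tpm3 was led by a transcript that GENCODE M21 does not list. Its exon order was 1b, 3, 4, 5, 6b, 7, 8 and 9d, made wholly of annotated splice sites in an unlisted combination. It held 173 of 330 Tpm3 reads in replicate 1 and 229 of 398 in replicate 2, which is 52.4% and 57.5% of the gene, or 130.1 and 168 CPM. The annotated transcript next to it, Tpm3-201, has 6a in place of 6b and the same 9d end. Tpm3-201 held 56 reads (16.97%) in replicate 1 and 68 reads (17.1%) in replicate 2. The 6b chain had more reads than the 6a chain in both libraries.

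Putting exon 6b in place of 6a in the sequence of Tpm3-201 left the reading frame open to the same stop codon in 9d, with 248 codons before the stop in either form. Both forms, 1b with 6a and 9d and 1b with 6b and 9d, are known short cytoskeletal products of the gene. In 346 of the 6809 genes covered by 20 or more reads per library (5.08%), the leading spliced model was unannotated, and in 253 of the 6809 (3.72%) it was a combination of annotated splice sites. Over all 346 genes led by an unannotated model, the median share held by that model was 25.4%, against 55.2% for Tpm3. Of these 346 genes, 48 had a higher share than Tpm3.

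The remaining Tpm3 reads were spread over models of under 5% of the gene each. Tpm3-202 (1b, 6b, then 9a and 9d), in which exon 9a precedes 9d, had 14 reads in replicate 1 and 15 in replicate 2. Tpm3-203 (1b, 6b, 9c) had 8 and 7 reads. With Tpm3-201, these were the 3 of 16 annotated Tpm3 transcripts that had reads. The chain with 6a, 9a and 9d, which is unannotated too, had 3 and 5 reads, and unspliced reads within annotated exons numbered 15 and 17. Of all 44 models, 18 were seen in both libraries, and they held 96.1% of Tpm3 reads in replicate 1 and 95.0% in replicate 2; 22 models rested on 1 read.

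**Figure D2:**
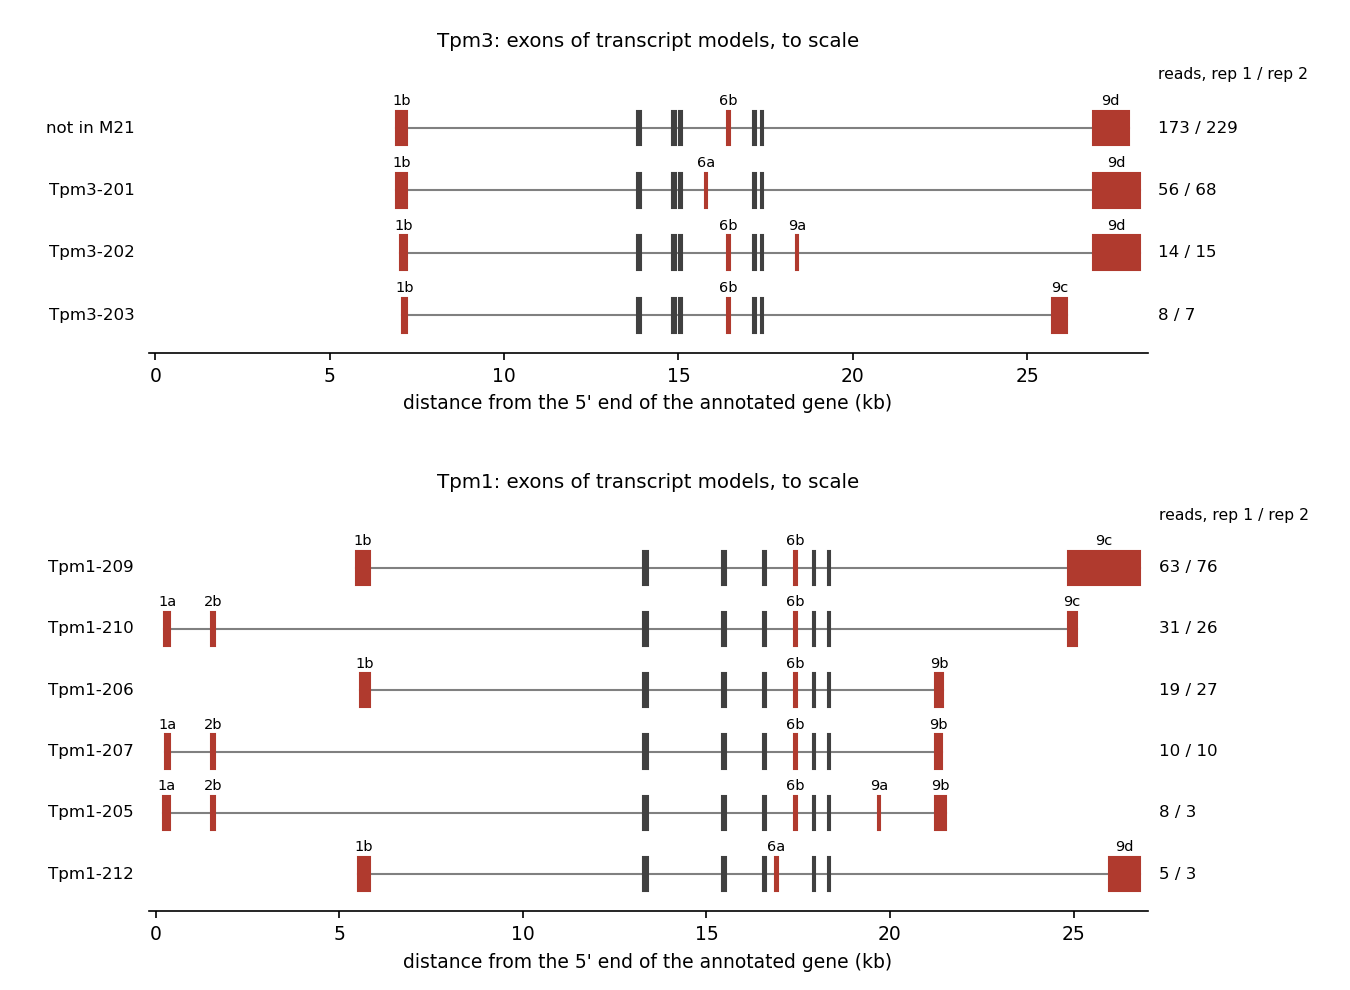
Exons of transcript models of Tpm3 and Tpm1 to scale, as distance in kb from the 5′ end of the annotated gene; boxes are exons, red where alternative and named above, lines are introns, and numbers at the right are reads in replicate 1 and replicate 2. The unlisted Tpm3 chain with 6b and 9d has 173 and 229 reads, above 56 and 68 for Tpm3-201, while in Tpm1 the 9c end leads with both first exons.

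Exon by exon, Tpm3 was used in a single way at its start and in mixed ways further on. Of the reads whose first splice donor is annotated, 292 of 308 (94.8%) in replicate 1 and 367 of 378 (97.1%) in replicate 2 began at exon 1b (first donor at chr3:90079863). Exon 1a of Tpm3, the start of its muscle form, had 0 of 686 such reads over both libraries, which allows a share of up to 0.437% by a floor of 3 reads. The others used a donor downstream of 1b (2 reads in each library) or began at exons 3, 4, 7 or 8, where short annotated fragments of the gene begin. Exon 6b was held by 222 of 288 spanning reads (77.1%; exact 95% interval 71.8 to 81.8) in replicate 1 and by 273 of 355 (76.9%; 72.2 to 81.2) in replicate 2. Exon 6a was held by 66 of 298 (22.1%) in replicate 1 and by 80 of 368 (21.7%) in replicate 2. Between replicate 1 and replicate 2, the share differed by 0.18 percentage points for 6b and by 0.41 for 6a. With annotated models only, the mean shares would be 26.3% for 6b and 73.7% for 6a, since the leading chain is left out.

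The Tpm3 end was 9d in 268 of 313 reads (85.6%) in replicate 1 and in 339 of 378 (89.7%) in replicate 2. It was 9c in 13 of 313 (4.15%) and 15 of 378 (3.97%). Both ends count reads in which 9a preceded them, and 9a preceded 9d in at least 17 reads in replicate 1 and 20 in replicate 2. Exon 9a was included in 22 of 282 reads (7.80%) in replicate 1 and 21 of 355 (5.92%) in replicate 2. With annotated models only, which leave out the leading chain, the mean share would be 17.3% for 9a (6.86% with all models) and 9.02% for 9c (4.06%). The splice acceptor of exon 9b, the last exon of the muscle form, was used in 1 read. The other reads ended at exon 4, 6a, 6b or 7, where short annotated fragments end. The most frequent of these ends, at exon 6b, had 10 reads in replicate 1 and 13 in replicate 2. Apart from these, 1 model with 2 reads in replicate 2 was listed as running on unspliced from 9a through the 9b sequence.

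The promoters in front of Tpm3 exons 1a and 1b are shown because reads came from exon 1b and none from exon 1a. Each window is 250 bases on the plus strand that end just before the start that RefSeq gives for the first exon (RefSeq table, GRCm38.p6), and capitals mark a match to the GC box GGGCGG on the reverse strand.
Tpm3 exon 1a, chr3:90072401-90072650: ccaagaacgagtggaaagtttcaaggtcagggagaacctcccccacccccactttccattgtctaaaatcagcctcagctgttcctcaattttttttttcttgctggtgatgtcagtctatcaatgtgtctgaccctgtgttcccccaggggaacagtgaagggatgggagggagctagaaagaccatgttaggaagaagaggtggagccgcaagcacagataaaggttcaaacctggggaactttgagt
Tpm3 exon 1b, chr3:90079271-90079520: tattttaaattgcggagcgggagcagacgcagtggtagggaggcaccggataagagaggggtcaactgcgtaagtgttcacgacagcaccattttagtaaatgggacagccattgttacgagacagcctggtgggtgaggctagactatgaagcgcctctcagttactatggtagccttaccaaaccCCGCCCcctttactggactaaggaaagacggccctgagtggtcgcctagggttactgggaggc
On both strands of the window, GGGCGG had 1 match before exon 1b and 0 before exon 1a, and it occurs in 32.7% of the 32851 windows of this length in the table. TATAAA had 0 matches in either window and occurs in 12.4% of all windows. The window before exon 1b held 11 CpG pairs and the one before exon 1a held 2, where the median over all windows was 6. Of all windows, 66.5% held 11 or fewer and 29.0% held 2 or fewer, so neither count was unusual. A match is a description of these letters and says nothing of a factor.

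Tpm1 was more varied than Tpm3 at its start and its end, and nearly uniform at exon 6. Of reads with an annotated first donor, 142 of 218 (65.1%; exact 95% interval 58.4 to 71.4) in replicate 1 and 162 of 239 (67.8%; 61.5 to 73.7) in replicate 2 began at exon 1b. Exon 1a began 75 of 218 (34.4%; 28.1 to 41.1) in replicate 1 and 74 of 239 (31.0%; 25.2 to 37.2) in replicate 2. Tpm1 thus used the start of the long forms, at which no Tpm3 read began. After exon 1a, exon 2b followed in 71 of 72 reads in replicate 1 and in 69 of 73 in replicate 2. Exon 2a, known from smooth muscle, had 0 of 75 reads in replicate 1 and 4 of 74 in replicate 2, all 4 on Tpm1-215, which ends in 9d.

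Exon 6b was held by 155 of 164 spanning Tpm1 reads (94.5%) in replicate 1 and 172 of 177 (97.2%) in replicate 2. Exon 6a was held by 9 of 189 (4.76%; 2.20 to 8.85) in replicate 1 and 6 of 212 (2.83%; 1.05 to 6.06) in replicate 2. The intervals for 6a in Tpm1 lay below those for 6a in Tpm3 (17.6 to 27.3 in replicate 1 and 17.6 to 26.3 in replicate 2).

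The brain end 9c was the most frequent Tpm1 end, with 98 of 193 reads (50.8%) in replicate 1 and 113 of 211 (53.6%) in replicate 2. Exon 9b ended 50 of 193 (25.9%) in replicate 1 and 52 of 211 (24.6%) in replicate 2, counting reads in which 9a preceded it. Exon 9d ended 13 of 193 (6.74%) in replicate 1 and 12 of 211 (5.69%) in replicate 2. In Tpm3 the 9d end held 85.6% and 89.7%, counting reads in which 9a preceded it. Reads that stopped at exon 6b were counted in the Tpm3 total but not in that of Tpm1, where no annotated transcript ends there. Exon 9a was included in 19 of 161 spanning reads (11.8%) in replicate 1 and 12 of 177 (6.78%) in replicate 2, a mean of 9.29% that would be 4.75% with annotated models only. Reads that ended at exons 4 and 5, where short annotated transcripts end, numbered 14 and 16 in replicate 1 and 14 and 18 in replicate 2.

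**Figure D3:**
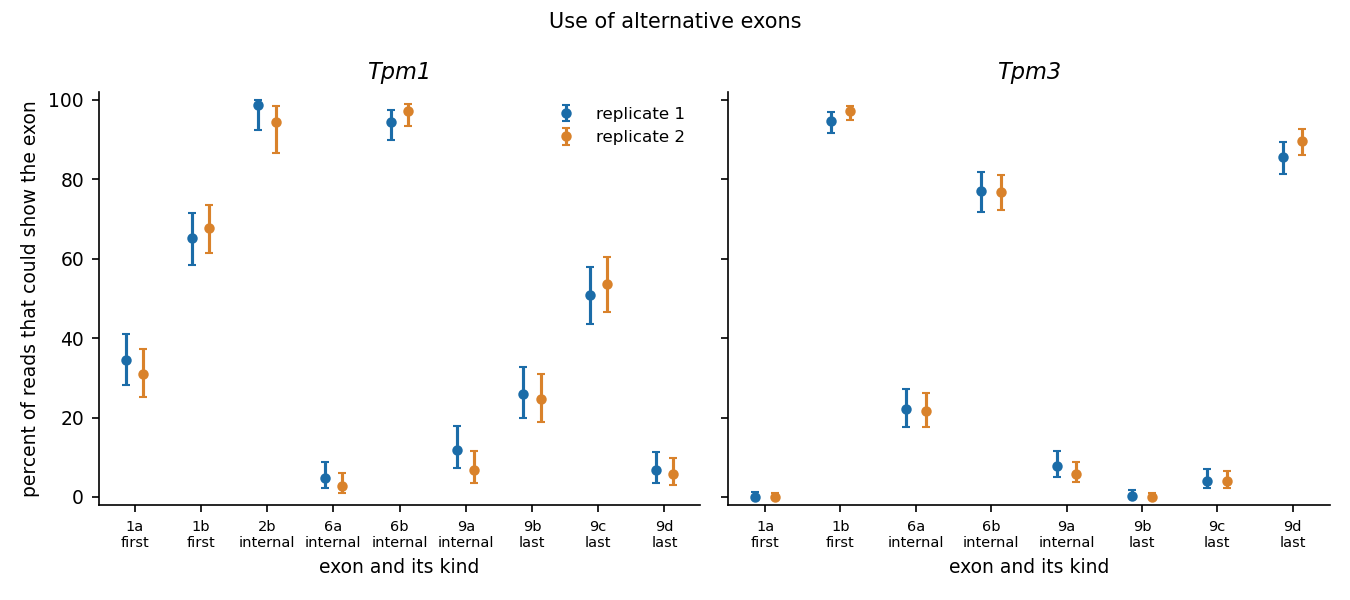
Share of reads that could show an exon and do, in percent, for alternative exons of Tpm1 and Tpm3; points are single libraries, replicate 1 left of replicate 2, with exact 95% intervals, and the word below each exon names its kind. Tpm1 divides between 1a and 1b and ends mostly in 9c (50.8% and 53.6%), while Tpm3 begins at 1b, keeps 6a in 22.1% and 21.7% of reads and ends in 9d.

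As whole molecules, 4 Tpm1 models held at least 5% of the gene's reads. Tpm1-209, a short form with 1b, 6b and 9c and 245 codons, had 63 reads (27.3%) in replicate 1 and 76 (29.3%) in replicate 2, or 47.4 and 55.6 CPM. Tpm1-210, the long form with 1a, 2b, 6b and 9c and 281 codons, had 31 reads (13.4%) in replicate 1 and 26 (10.04%) in replicate 2. Tpm1-206, with 1b, 6b and 9b and 251 codons, had 19 reads (8.23%) in replicate 1 and 27 (10.4%) in replicate 2. The fourth was incomplete, running from 1b to 6b without an end exon, with 17 reads (7.36%) in replicate 1 and 16 (6.18%) in replicate 2.

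The other Tpm1 models lay below 5%. Among them, the striated muscle chain Tpm1-205 (1a, 2b, 6b, 9a and 9b) had 8 reads in replicate 1 and 3 in replicate 2, and the same end on a 1b start, which M21 does not list, had 8 and 7. Tpm1-212 (1b, 6a, 9d), a chain known from fibroblasts, had 5 and 3 reads. In all, 13 of the 21 annotated Tpm1 transcripts had reads, and annotated transcripts held 66.7% of the gene's reads in replicate 1 and 63.3% in replicate 2, where in Tpm3 they held 23.6% and 22.6%. Incomplete matches to annotated transcripts made up 24.7% and 31.3% of Tpm1 reads. Of the 46 Tpm1 models, 22 were in both libraries, holding 96.1% (replicate 1) and 89.2% (replicate 2) of the gene's reads, and 21 rested on 1 read.

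Reads that showed a first exon, an exon 6 and a last exon at once gave the joint use of these exons. There were 155 such Tpm1 reads in replicate 1 and 165 in replicate 2, and 261 and 339 for Tpm3. In Tpm1, the combination 1b, 6b, 9c had 64 of 155 (41.3%) in replicate 1 and 79 of 165 (47.9%) in replicate 2, and 1a, 6b, 9c had 31 (20.0%) and 26 (15.8%). Over both libraries, 9c ended 57 of 95 reads that began at 1a (60%; exact 95% interval 49.4 to 69.9) and 143 of 225 that began at 1b (63.6%; 56.9 to 69.8). These intervals overlap over most of their width, and a difference in the choice of 9c between the start sites was not detectable at this depth. For 9d the order turned between the libraries: it ended 2 of 51 reads after 1a (3.92%) and 10 of 104 after 1b (9.62%) in replicate 1, and 5 of 44 after 1a (11.4%) and 7 of 121 after 1b (5.79%) in replicate 2.

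Exon 6 and the last exon were not evenly joined in Tpm1. Of the 200 end-to-end reads with 9c over both libraries, 0 held 6a (exact 95% interval 0 to 1.83%). Of the 66 with 9b directly after exon 8, 0 held 6a (0 to 5.44%). Of the 24 reads with 9d, 10 held 6a without 6b, 6 of 12 in replicate 1 and 4 of 12 in replicate 2 (41.7% over both; exact 95% interval 22.1 to 63.4), and 1 read in replicate 2 held both. Of the 30 with 9a and 9b, 3 held 6a (10%; 2.11 to 26.5). Seen from the other side, 10 of the 13 Tpm1 reads with 6a alone ended in 9d. This pattern was seen in the reads and is given as counts, with no test.

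Tpm3 did not show such a pattern at its depth. Exon 6b alone was held by 409 of 535 Tpm3 reads with 9d (76.4%; 72.6 to 79.98), by 19 of 24 with 9c (79.2%; 57.8 to 92.9) and by 29 of 37 with 9a and 9d (78.4%; 61.8 to 90.2). In Tpm3 the 9c end was thus found with 6a alone in 4 of 24 reads (16.7%; 4.74 to 37.4) and with both 6a and 6b in 1 read of replicate 2, where in Tpm1 it was found with 6a in 0 of 200.

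**Figure D4:**
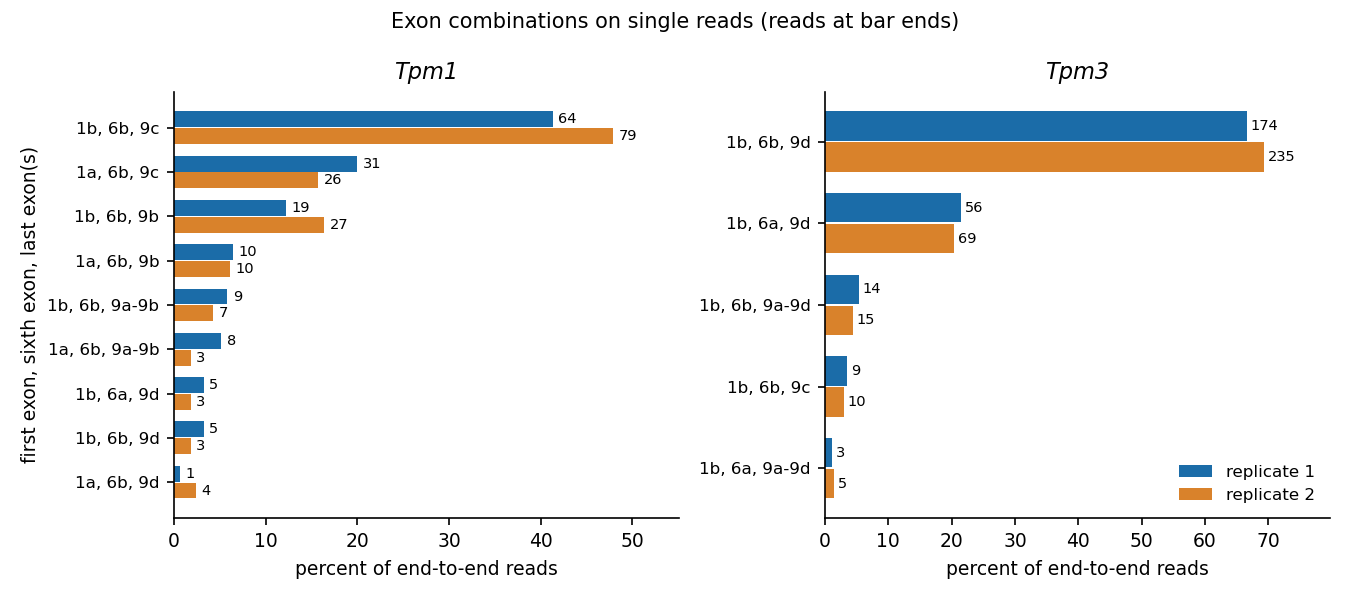
Combinations of first, sixth and last exon on single reads of Tpm1 and Tpm3, as percent of the reads that show all of them; bars are single libraries, replicate 1 above replicate 2, numbers at bar ends are reads, and combinations with fewer than 5 reads over both libraries are left out. In Tpm1 exon 6a appears with 9d only among the combinations drawn, and in Tpm3 6a appears with 9d and 9a-9d.

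Tpm4 was expressed as 1 chain. Tpm4-201 (1b, 3 to 8 and 9d, 248 codons) had 41 of 47 reads (87.2%) in replicate 1 and 70 of 77 (90.9%) in replicate 2. All 43 and 73 reads with an annotated first donor began at exon 1b, and all 45 and 73 with an annotated last acceptor ended in 9d (lower bounds of the exact 95% intervals for the end, 92.1% in replicate 1 and 95.1% in replicate 2). The other 10 models were incomplete, unspliced or held an unannotated splice site, and 8 of the 11 models rested on 1 read. Exon 9d of Tpm4 matched that of Tpm1 at 66.3% of its 83 coding bases and that of Tpm3 at 59.0%.

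Tpm2 was close to the limit of detection of 3 reads, which is 2.26 CPM in replicate 1 and 2.20 CPM in replicate 2. Its most frequent model was an incomplete chain of exons 3, 4, 5, 6b, 7, 8 and 9a with 3 reads in each library, the pairing of 6b and 9a that skeletal muscle uses. Tpm2-203, with 1a, 2b, 6a and 9d as in smooth muscle, had 1 read in replicate 1 and 2 in replicate 2 and was the 1 of 6 annotated Tpm2 transcripts with reads. The other 5 models had 1 read each: in replicate 1 a chain of exons 3 to 6b and an unspliced read, and in replicate 2 chains of exons 1a to 4, of exons 5 to 9a, and of exons 3 to 6b behind an unannotated first exon. With 14 reads in all, no share of Tpm2 exons can be given with useful precision: 6b had 3 of 4 spanning reads in replicate 1 and 4 of 6 in replicate 2.

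Across the family, short forms prevailed. Of the reads that began at 1a or 1b of any of the genes, 477 of 553 (86.3%; exact 95% interval 83.1 to 89.0) in replicate 1 and 602 of 679 (88.7%; 86.0 to 90.9) in replicate 2 began at 1b. Reads from 1a came from Tpm1 and, with 1 read in replicate 1 and 3 in replicate 2, from Tpm2. These are shares of the reads that reached a first exon.

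No alternative exon of the family was called different between replicate 1 and replicate 2. Two-sided Fisher's exact tests with Benjamini-Hochberg adjustment over all genes called 0 of 9 first exons of the family (0.19% of 11591 first exons called in all genes), 0 of 27 internal exons (0.0118% of 42454) and 0 of 14 last exons (0.12% of 6660). All 50 adjusted p-values were 1. Before adjustment, 0 of 9, 2 of 27 and 1 of 14 passed 0.05, where 3.47%, 0.982% and 2.85% of all such exons did, and the smallest p-values were 0.122, 0.0191 and 0.0248. The 2 internal ones were the forms of Tpm3 exon 4 that start 2 bases apart. The shorter form, of 116 in place of 118 bases, which shifts the reading frame, had 0 of 293 reads in replicate 1 and 7 of 365 in replicate 2. Tpm1 exon 4 had the same 2-base shortening in 3 of 202 reads in replicate 1 and 6 of 226 in replicate 2. The constant exons 3, 5, 7 and 8 were held by 98.98% to 100% of spanning reads in each library in Tpm1 and Tpm3, and by 97.7% to 100% in Tpm4.

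Genes of proteins that work with tropomyosin on actin were described from a list of 34, of which 31 had reads. Of 22 tested, 1 was called higher in replicate 1 and 1 lower, against 5.95% called of all genes, and the median log2 ratio of replicate 1 over replicate 2 was 0.13. Tropomodulins cap the slow end of filaments on top of tropomyosin. Tmod2, the neuronal one, led with 327 CPM in replicate 1 against 388 CPM in replicate 2, a level between those of the whole family and of Tpm3. Tmod1 followed with a mean of 37.0 ± 5.59 CPM and Tmod3 with 16.7 ± 3.99 CPM (SD, n = 2). Calponins and caldesmon bind actin beside tropomyosin: Cnn3 had a mean of 189 ± 1.66 CPM, Cald1 25.9 ± 3.70 CPM and Cnn2 24.1 ± 0.0681 CPM.

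Cofilins, which sever actin filaments and compete with many tropomyosins, were the group of highest sum. Cfl1 had 597 CPM in replicate 1 against 508 CPM in replicate 2 and was called higher in replicate 1 (log2 ratio 0.23, adjusted p = 0.0370 by Fisher's exact test). Dstn had a mean of 391 ± 22.6 CPM and Cfl2 121 ± 16.6 CPM. Of the non-muscle myosin genes, Myl6 had a mean of 319 ± 21.2 CPM, Myl12b 199 ± 17.4 CPM and Myl12a 70.5 ± 8.68 CPM. Myl9 had 13 reads in replicate 1 and 36 in replicate 2 and was called lower in replicate 1 (log2 ratio -1.43, adjusted p = 0.0302 by Fisher's exact test). Formins, which start unbranched filaments, were low, with means of 15.9 ± 1.27 CPM for Daam1, 14.1 ± 0.782 CPM for Diaph1 and 9.29 ± 1.75 CPM for Fmn2. Troponins, the partners of tropomyosin in striated muscle, had few reads. Tnni1 had a mean of 7.79 ± 0.672 CPM, with 11 reads in replicate 1 and 10 in replicate 2, above the floor of 3 reads. Tnnc1, with 4 and 0 reads, and Tnnt1, with 1 and 2, were near the floor.

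**Figure D5:**
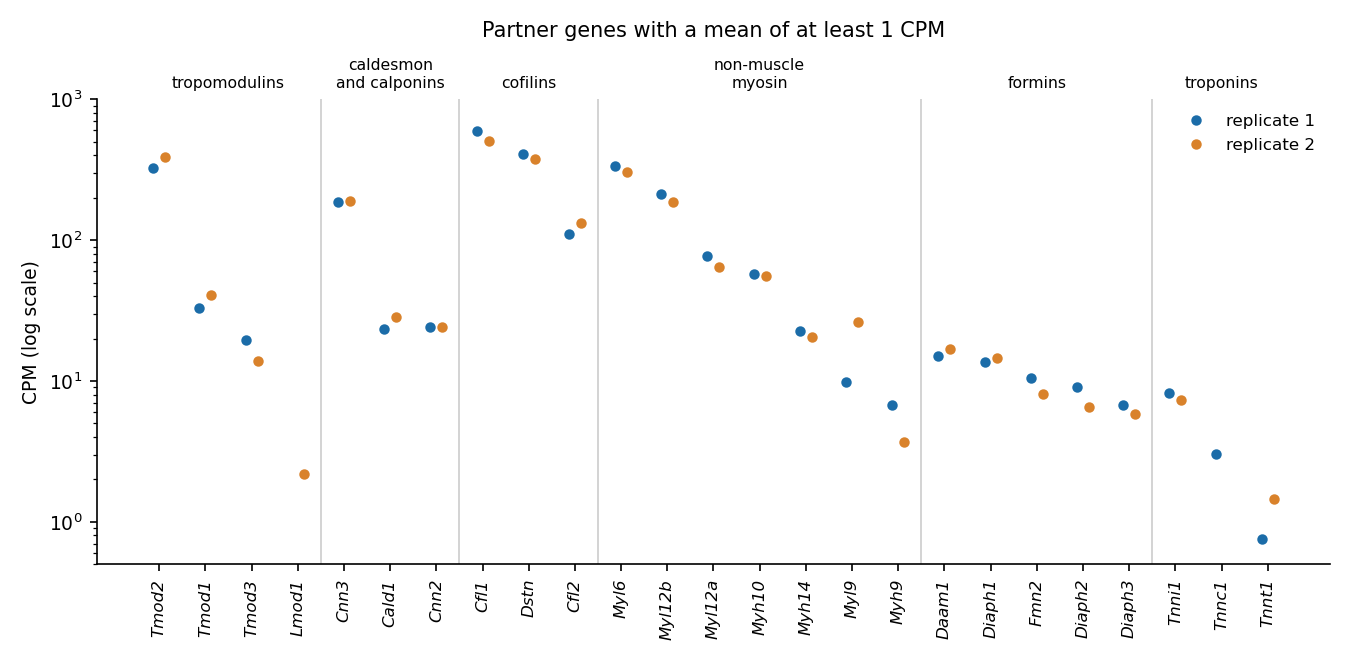
Level in CPM (log scale) of genes of tropomyosin partner proteins with a mean of at least 1 CPM, grouped by role; points are single libraries, replicate 1 left of replicate 2, and a library at 0 reads has no point (Lmod1 in replicate 1 and Tnnc1 in replicate 2). Cfl1 is highest (597 and 508 CPM), and the 3 troponin genes drawn lie below 10 CPM.

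Close copies of the genes could take few of these reads. Tpm3-rs7, a gene copy that shares 82.0% of its 25-base words with Tpm3, had 2 reads in each library, which may belong to either. Gm7809, a pseudogene that shares 55.7% of its words with Tpm4, had 0 reads, and so did the 6 pseudogenes that share at least 10% of theirs with Tpm3. Between the 4 genes themselves, at most 21 words were shared, between Tpm1 and Tpm2. On the opposite strand, Tpm4 overlaps Gm16091, with 2 reads in replicate 1 and 0 in replicate 2, and Gm26586, with 0 reads; the strand setting of the library is not given in the sources used here, so reads of overlapping genes may be mixed. No annotated gene overlaps the other 3.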

How the data were processed

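Both libraries are long-read RNA-seq of mouse hippocampus. The authors deposited raw counts of reads per transcript model, made with TALON per the file headers, and models' exon coordinates; the build (mm10) and annotation (GENCODE M21) are given in the deposited description files. The aligner, platform and filters were not given in the sources used here. Models were matched between libraries by strand and intron chain, and a gene's count adds up its models whatever their class. The total for CPM was every read of the library (1330153 in replicate 1 and 1366252 in replicate 2). No molecular identifiers are described, so intervals (exact Clopper-Pearson, 95%) and the floor of 3 reads cover counting error only.

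An exon's share counts reads that hold it among reads that could show it: annotated first splice donors, annotated last acceptors, or spliced reads spanning an internal exon. Gene and exon tests were two-sided Fisher's exact tests (scipy 1.17.1) with Benjamini-Hochberg adjustment over all genes or exons, for genes with at least 10 reads over both libraries and exons with at least 20 in each; a call is an adjusted p under 0.05. edgeR 4.0.16 gave the common dispersion (biological coefficient of variation 16.1%) and an exact test, and DESeq2 1.42.0 alternative size factors. Tests were run on simulated data that held known differences and counting error only. Those data lacked the spread between libraries, so they cannot show how the tests behave under it. Named were the 4 genes, models with at least 5% and exons with at least 1% of their reads, and from each list the 3 genes of highest mean CPM and any called; other models and exons in the text were chosen after their values were seen. Members, lists and exon names were chosen with earlier results of these data known. Protein sequences were not used here. One cell type list is not reported here.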

Additional observations from a re-analysis of the deposited data

Results flagged for a closer look

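Unspliced reads on the opposite strand of Tpm1 and Tpm3, which no comparison above uses, exceeded the floor of 3 reads in replicate 1. Over Tpm1, antisense loci without a splice site had 4 reads in replicate 1 and 0 in replicate 2. Over Tpm3, such loci had 4 reads in replicate 1 and 2 in replicate 2. No such reads were listed over Tpm2 or Tpm4. Unspliced reads made up 24.5% of all reads in replicate 1 and 19.4% in replicate 2, and their part in these values was not tested. With 1 group of 2 libraries, no sample was set apart from its group and no groups were compared.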

How the results depend on the processing

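No paired analysis was possible because there is 1 group of 2 libraries. The 4 tropomyosin genes stayed uncalled under every alternative that gave a test; the lowest adjusted p-values, 0.0701 for Tpm3 and 0.0984 for Tpm4 by Fisher's exact test, came without genomic and incomplete models, where Tpm2 had too few reads for a test. That alternative lowered mean CPM to 127 for Tpm1, 1.47 for Tpm2 and 226 for Tpm3. Over all genes, 707 calls (305 higher in replicate 1 and 402 lower) became 50 (37 and 13) with edgeR's exact test. Other scalings turned the split to 352 and 305 with TMM and to 352 and 304 with size factors of DESeq2, while leaving out genomic and incomplete models gave 145 and 459. Called first exons numbered 22, against 5 with annotated models only and 47 with every donor. Called internal exons numbered 5, against 3 at a minimum of 50 reads and 8 with models of at least 2 reads. Called last exons numbered 8, against 4 with annotated models only and 19 with every acceptor; the cause was not tested. With annotated models only, 16 of 43 mean exon shares moved by more than the spread between the libraries. Tpm3 6b was then 26.3%, 6a 73.7%, 9a 17.3% and 9c 9.02%, since the leading chain is not annotated, and Tpm1 9a was 4.75%. Tpm2 1a, 6a and 9d were each 100%, since 3 reads of 1 annotated transcript remain. There the Tpm3 6a difference between the libraries was -3.76 points (0.41 otherwise), and with models of at least 2 reads the 6b difference was -0.21 points (0.18 otherwise), all with an adjusted p of 1. Leaving out a replicate gives the other library alone: 174 to 189.6 CPM for Tpm1, 4.51 to 5.86 for Tpm2, 248 to 291 for Tpm3 and 35.3 to 56.4 for Tpm4.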
